A study of Mus musculus with 800 samples.

Results

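The genes described here make, package, take up and break down GABA, the main inhibitory transmitter of the mouse forebrain. They are Gad1, Gad2, Slc32a1, Slc6a11, Abat and Aldh5a1, 6 of the 32285 genes in the count table, chosen by name and matched by Ensembl identifier, 1 identifier each. The counts come from 800 single nuclei of C57Bl/6J mice, 40 for each of 20 AAV vectors (adeno-associated virus) packaged in PHP.eB, a capsid that crosses into the brain, given to young adults at 5e11 vg per mouse and sorted 3 to 4 weeks later by a nuclear yellow fluorescent reporter. Each vector carries its own promoter or enhancer: hSyn1 is a neuronal promoter, CMV a general viral promoter, DLX2.0 and hI56i carry Dlx enhancers of forebrain inhibitory neurons, and the other 16 have a code without a stated target. All sample labels name the anterior lateral motor cortex, no label names an animal, and a vector label was therefore taken as 1 sample. Each nucleus was sorted for the reporter, so cells that did not show it, and mice without a vector, are not among the samples.

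GABA is made from glutamate by glutamate decarboxylase, of which Gad1 encodes the form spread through the whole cell and Gad2 the form concentrated at synaptic terminals. Slc32a1 encodes the transporter that loads GABA into synaptic vesicles, and Slc6a11 a plasma membrane transporter best known from astrocytes, which take GABA up from around synapses. Abat encodes GABA transaminase and Aldh5a1 succinic semialdehyde dehydrogenase, the mitochondrial enzymes that turn GABA into succinate. Cortical interneurons and the spiny projection neurons (SPNs) of the striatum are both GABAergic, while cortical projection neurons release glutamate.

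On the mm10 (GRCm38) genome with the GENCODE M21 annotation, Gad2 lies at chr2:22622205-22693874, Gad1 at chr2:70553072-70602014 and Slc32a1 at chr2:158610767-158615748, all on the forward strand. Slc6a11 lies at chr6:114131241-114249952 and Abat at chr16:8513429-8621568, both forward, and Aldh5a1 at chr13:24907579-24937661 on the reverse strand. The libraries do not mark strand, so reads of a gene and of a gene on its opposite strand cannot be told apart. A long non-coding gene on the opposite strand, 9330162012Rik, overlaps the start of Aldh5a1 and had 2041 counts, 29.6% of the number for Aldh5a1, so the level of Aldh5a1 is uncertain. Another gene opposite to Aldh5a1, 4932702P03Rik, had 165 counts. Gad1os, opposite to Gad1, had 212 counts, 0.296% of those of Gad1.

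The DNA before a RefSeq transcript start of each synthesis and packaging gene is shown because these 3 genes were high in the same classes of nuclei. Each sequence is the 250 bases before the RefSeq start (build GRCm38.p6, forward strand), written 5′ to 3′, with CG dinucleotides in capitals. RefSeq and GENCODE place the starts differently, so the Gad1 stretch lies inside the GENCODE gene given above and the Gad2 stretch runs past that gene's start.
Gad1, chr2:70561879-70562128: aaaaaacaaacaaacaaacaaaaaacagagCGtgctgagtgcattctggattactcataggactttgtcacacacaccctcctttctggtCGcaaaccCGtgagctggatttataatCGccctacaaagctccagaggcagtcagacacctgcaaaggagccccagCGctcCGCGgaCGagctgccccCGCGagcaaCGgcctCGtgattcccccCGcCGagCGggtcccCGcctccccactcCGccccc
Gad2, chr2:22622077-22622326: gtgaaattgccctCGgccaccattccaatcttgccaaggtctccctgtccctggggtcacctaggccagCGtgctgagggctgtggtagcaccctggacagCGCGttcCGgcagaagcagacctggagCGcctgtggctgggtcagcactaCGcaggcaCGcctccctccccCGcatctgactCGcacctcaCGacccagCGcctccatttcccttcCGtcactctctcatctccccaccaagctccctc
Slc32a1, chr2:158610508-158610757: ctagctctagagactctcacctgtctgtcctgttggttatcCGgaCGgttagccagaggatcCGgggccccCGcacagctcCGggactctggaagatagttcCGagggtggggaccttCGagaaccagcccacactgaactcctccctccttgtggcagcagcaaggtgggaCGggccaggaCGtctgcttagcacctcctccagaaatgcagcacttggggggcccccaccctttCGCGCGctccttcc
The 3 sequences hold 58.0%, 64.0% and 62.4% G or C, and 17, 13 and 12 CG dinucleotides, in the order Gad1, Gad2, Slc32a1. The medians over all mouse promoters of the same table and length were 52.4% and 6, so all 3 were richer in both. This was not particular to them, as the same stretch held 71.2% and 25 for Slc6a11 and 57.2% and 17 for Aldh5a1. Of all promoters, 76.3%, 68.2% and 66.3% had fewer CG dinucleotides than Gad1, Gad2 and Slc32a1. In windows from 250 bases before to 50 bases after the start, the homeodomain core TAATTA was found in 5.29% of 32544 promoters, the Meis core TGACAG in 19.1% and the cyclic AMP response element TGACGTCA in 1.80%, each searched on both strands. None of the 3 motifs was in the windows of Gad1, Gad2, Slc32a1 or Slc6a11. The Aldh5a1 window held 1 TGACAG, 204 bases before the start.

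Nuclei held a median of 260170 counts (70 to 901264), and 698 had at least 1000 genes detected. These were clustered without the 6 genes and without a list of 26 other genes of GABA and glutamate metabolism, and clusters were named from markers. SPN-like nuclei, in a cluster led by Rgs9, numbered 161. Astrocyte-like nuclei, with Slc1a3 among the leading genes, numbered 106. GABAergic-like nuclei, with the markers of GABAergic interneurons, numbered 253, oligodendrocyte-like nuclei 50, and glutamatergic-like nuclei, led by Slc17a7, 108. A cluster of 20 nuclei led by Lhx8 stayed unnamed. SPN-like cells are a striatal type and go against the cortical label of their samples. The series' design text names striatum among the tissues sorted, and which nuclei of any class came from it cannot be told from the labels.

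Levels are given as CPM, counts per 1000000 counts, from counts summed over the nuclei of a class under 1 vector, for vectors with at least 3 such nuclei. The reads have no molecule barcodes, so values count reads, not molecules. In such sums, fewer expressing nuclei and less RNA per nucleus cannot be told apart. Tests were run across all genes by edgeR's quasi-likelihood test with vector as a block and Benjamini-Hochberg adjustment, and a gene was called at an adjusted p under 0.05.

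Gad1 was lower in SPN-like than in GABAergic-like nuclei. Over the 12 vectors that held both classes, it averaged 290.8 ± 143 CPM in SPN-like sums and 748.1 ± 238 CPM in GABAergic-like sums (SD, n = 12 each). The lowest, median and highest SPN-like sums had 132, 295 and 607 CPM, and the lowest, median and highest GABAergic-like sums 455, 741 and 1180 CPM. It was lower in SPN-like nuclei under 11 of 12 vectors, the exception being AiE0401h with 607 CPM in SPN-like and 455 CPM in GABAergic-like nuclei, so the ranges overlap. The log2 fold change of Gad1 was -1.39 (SE 0.29, edgeR adjusted p = 0.00271), against a median of -0.50 over all genes tested, and 28.5% of genes had a lower value. In this comparison 7.71% of 8961 genes were called, 3.26% as higher and 4.45% as lower in SPN-like nuclei, and of the 6 GABA genes Gad1 alone was called. Slc6a11 was removed by a filter on low counts and was not tested there.

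The Gad1 call was lost under some choices of nuclei. With equal numbers of nuclei of both classes in each vector its log2 fold change was -1.04 (edgeR adjusted p = 0.0559), and within library series S40326 alone -1.25 (adjusted p = 0.186). With GABAergic-like nuclei taken only from runs of 8 consecutive title numbers that also held SPN-like nuclei, a choice made after seeing the data, it was -0.92 (adjusted p = 0.455). Over the alternatives run, the adjusted p of Gad1 ran from 2.71e-05 under DESeq2 to 0.663 with runs of 8 as the unit, and Gad1 was lower in SPN-like nuclei in each of them. Summed over vectors, Gad1 had 242 CPM in SPN-like and 796 CPM in GABAergic-like nuclei of series S40326. The other large series, S40324, had 336 CPM in SPN-like and 900 CPM in GABAergic-like nuclei, and too few vectors with both classes for a fit.

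Gad2, the second synthesis gene, did not pass the test between the same classes. It averaged 226 ± 146 CPM in SPN-like sums and 346 ± 192 CPM in GABAergic-like sums (SD, n = 12 each). The SPN-like sums ran from 58.0 to 516 CPM (median 204) and the GABAergic-like sums from 48.5 to 619 CPM (median 368). The ranges overlap almost wholly, and Gad2 was lower in SPN-like nuclei under 7 of 12 vectors. Its log2 fold change was -0.53 (SE 0.49, edgeR adjusted p = 0.665), at the median of all genes.

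**Figure D1:**
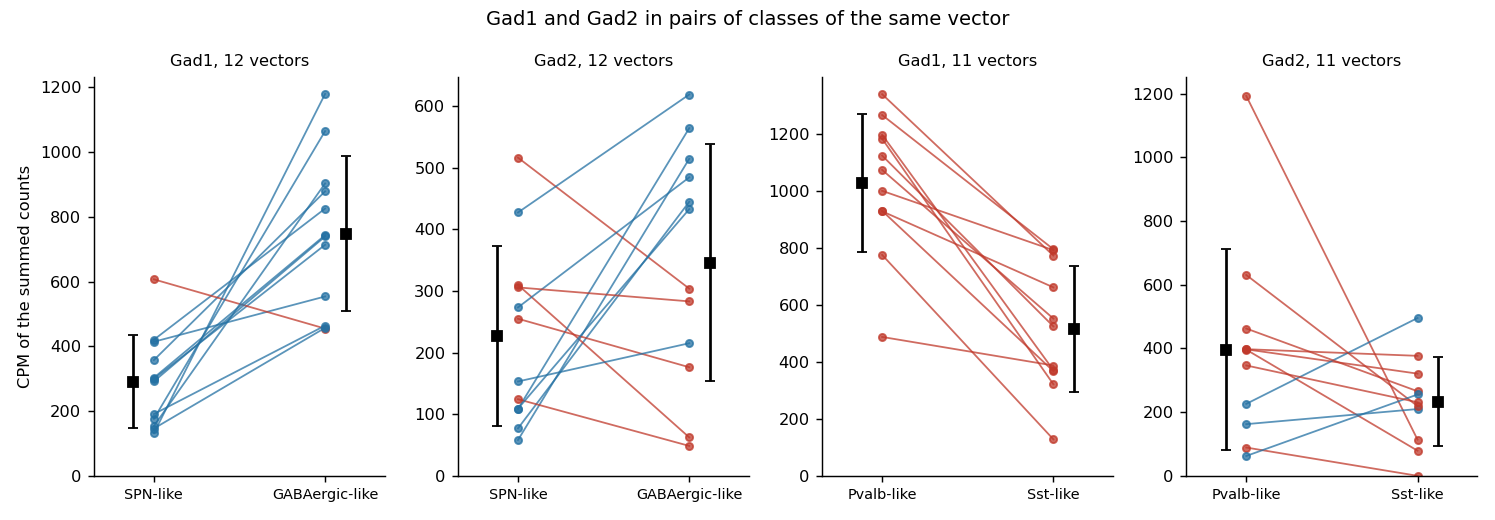
CPM of Gad1 and Gad2 in sums of 2 classes under the same vector, SPN-like left of GABAergic-like and Pvalb-like left of Sst-like; each line is a vector, red where the left class is higher and blue where it is lower, and squares with bars are means ± SD. Gad1 lines rise to the GABAergic-like side under 11 of 12 vectors and fall to the Sst-like side under 11 of 11, while Gad2 lines run both ways.

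The share of Gad1 in the summed counts of Gad1 and Gad2 does not depend on how libraries are scaled. It was 57.3 ± 15.6% in SPN-like sums and 69.5 ± 15.7% in GABAergic-like sums (SD, n = 12 each), lower in SPN-like nuclei under 8 of 12 vectors. The mean difference of -12.1 percentage points did not pass an exact two-sided sign-flip permutation test (p = 0.131, adjusted over 3 comparisons 0.393). Without AiE0391h the difference was -16.5 points (exact permutation p = 0.0391, unadjusted, the lowest in a range up to 0.524 over the alternatives run). Per kilobase of annotated exon, levels pooled over all nuclei of a class were 33.7 CPM for Gad1 and 41.7 CPM for Gad2 in SPN-like nuclei, and 109 CPM for Gad1 and 68.0 CPM for Gad2 in GABAergic-like nuclei. In SPN-like nuclei the order of the 2 genes depends on the annotated exon lengths, 7639 bases for Gad1 and 5876 for Gad2. These levels hold only if reads in introns were not counted, which is not known.

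**Figure D2:**
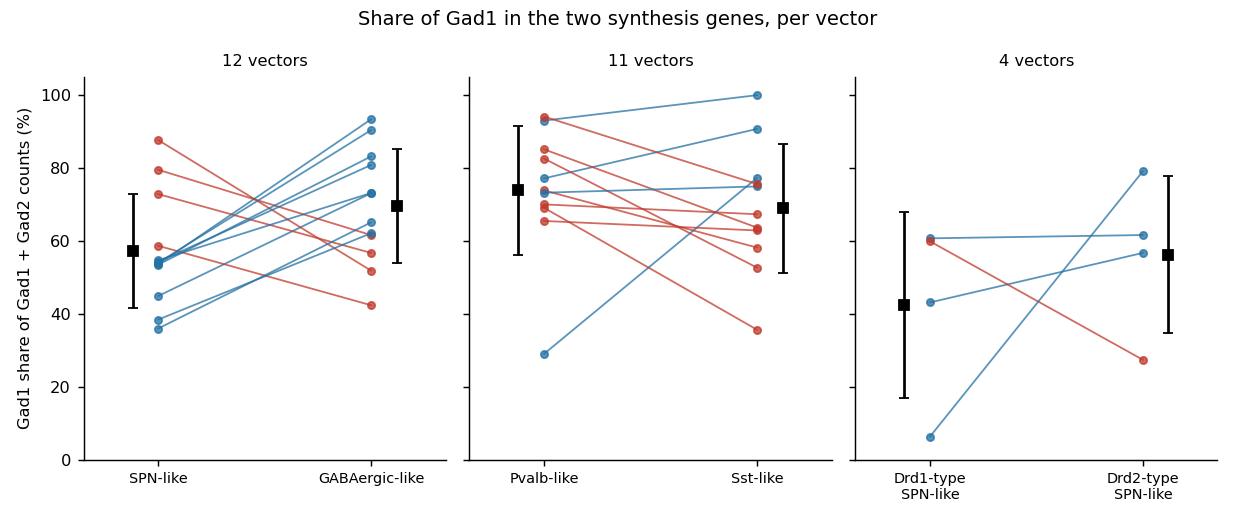
Gad1 as a percentage of Gad1 plus Gad2 counts in 2 classes under the same vector, 1 line per vector, red where the left class is higher and blue where it is lower; squares with bars are means ± SD. The shares average 57.3% in SPN-like and 69.5% in GABAergic-like nuclei with lines in both directions, and the 4 pairs of Drd1-type and Drd2-type nuclei spread widely.

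Single nuclei were also compared at equal depth, after thinning each to 150000 counts. Here and below, this makes reads equal but not the number of genes detected per nucleus. Before thinning, that number had medians of 2652 in SPN-like, 3094 in GABAergic-like and 3264.5 in glutamatergic-like nuclei. In astrocyte-like and oligodendrocyte-like nuclei the medians were 1454 and 1139.5. The part of these differences in the shares was not tested. Gad1 was detected in 61.7% of 149 SPN-like nuclei (95% Clopper-Pearson interval 53.4 to 69.6%) and in 88.8% of 240 GABAergic-like nuclei. Unthinned, the SPN-like share was 60.9%. Gad2 was detected in 49.0% of SPN-like and 67.9% of GABAergic-like nuclei. Both genes were found in 49 of 149 SPN-like nuclei (32.9%, 25.4 to 41.0%) and in 148 of 240 GABAergic-like nuclei (61.7%, 55.2 to 67.8%). Neither was found in 22.1% of SPN-like and 5.0% of GABAergic-like nuclei, against 97.0% of 101 glutamatergic-like nuclei, which should lack both. These intervals cover counting error only and treat nuclei as independent.

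Slc32a1, the vesicle loader, had 2.46 CPM per kilobase of exon in SPN-like and 11.6 in GABAergic-like nuclei, below Gad1 and Gad2 on that scale in both classes. That order holds only if reads in introns were not counted, which is not known. As a sum Slc32a1 averaged 8.36 ± 12.5 CPM in SPN-like and 28.9 ± 23.4 CPM in GABAergic-like sums (SD, n = 12 each). It was lower in SPN-like nuclei under 11 of 12 vectors, with medians of 2.79 CPM in SPN-like and 24.4 CPM in GABAergic-like sums, and hI56i was the exception. The log2 fold change was -2.99 with a wide error (SE 1.42, edgeR p = 0.0476, adjusted p = 0.268), which did not pass. At equal depth it was detected in 12.8% of SPN-like nuclei (7.86 to 19.2%) and in 38.3% of GABAergic-like nuclei. Of the SPN-like nuclei with Slc32a1, 18 of 19 also held Gad1 or Gad2.

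The SPN-like sums were checked for the markers of other cells. The marker lists also named the clusters, so high SPN and low interneuron markers follow from how the classes were made. All 12 SPN markers summed to 8437 to 15239 CPM in SPN-like and 238 to 824 CPM in GABAergic-like sums. The 14 interneuron markers summed to 46.6 to 371 CPM in SPN-like and 3093 to 11435 CPM in GABAergic-like sums, and Lhx6, Sox6, Npas1 and Kcnip1 were at 0 in all SPN-like sums. The 10 oligodendrocyte markers had a median of 564 CPM (0 to 2440) in SPN-like and 181 CPM (0 to 402) in GABAergic-like sums. By their mean over vectors 7 of 10 were higher in SPN-like nuclei, and Mog and Opalin were at 0 there. The 7 microglia markers had a lower median in SPN-like sums, 2.02 CPM (0 to 2255), than in GABAergic-like sums, 49.8 CPM (0 to 176). By their mean over vectors, which extreme sums can carry, 6 of 7 were higher in SPN-like nuclei. The 8 glutamatergic markers had medians of 150 CPM in SPN-like and 5.39 CPM in GABAergic-like sums, with 3 of 8 higher by mean in SPN-like nuclei. The 10 astrocyte markers had medians of 62.6 CPM in SPN-like and 38.6 CPM in GABAergic-like sums (4 of 10 higher). For 5 markers of oligodendrocyte precursors the medians were 22.7 CPM in SPN-like and 1.63 CPM in GABAergic-like sums (1 of 5 higher). The part of these reads of other cells' markers in the levels of the GABA genes was not tested.

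**Figure D3:**
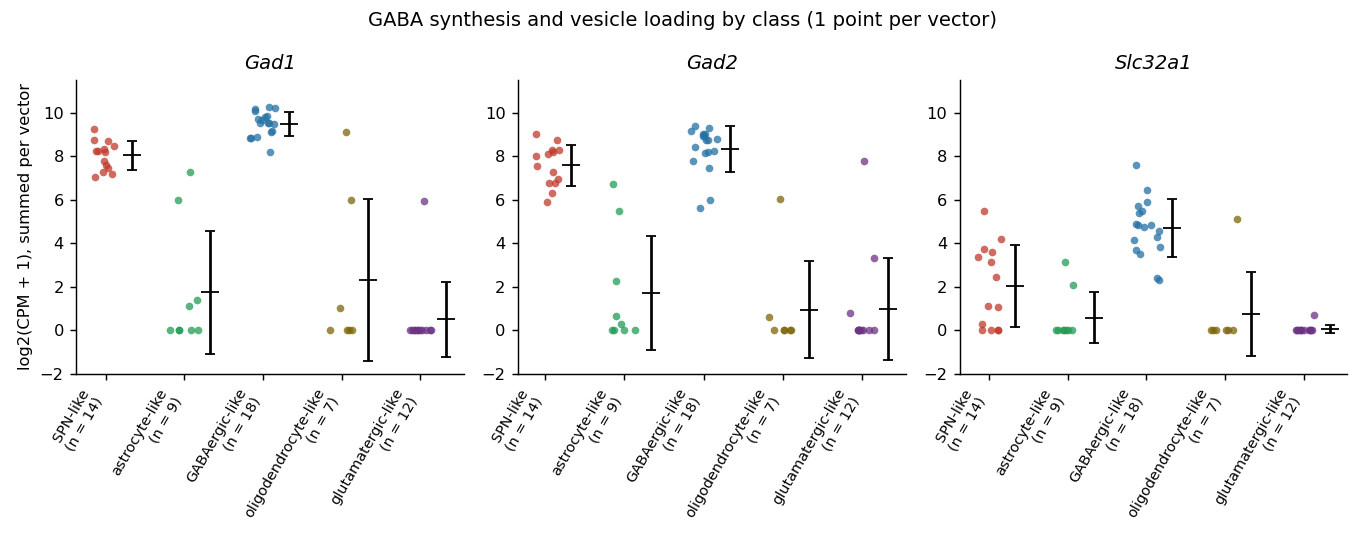
log2(CPM + 1) of Gad1, Gad2 and Slc32a1 in 5 classes, 1 point per vector, with mean ± SD beside the points; n is the number of vectors. Gad1 and Gad2 lie high in SPN-like and GABAergic-like nuclei and at or near 0 for most vectors in the other 3 classes, and Slc32a1 is above 0 mainly in those neurons.

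GABAergic-like nuclei were set apart from glutamatergic-like nuclei by the synthesis and packaging genes. Over 12 vectors Gad1 averaged 699 ± 267 CPM in GABAergic-like and 5.01 ± 17.4 CPM in glutamatergic-like sums (SD, n = 12 each), and was at 0 in 11 of the 12 glutamatergic-like sums. The ranges of Gad1 in the classes do not overlap. Gad2 averaged 382 ± 183 CPM in GABAergic-like and 18.7 ± 61.8 CPM in glutamatergic-like sums, with 9 of those 12 at 0. Both were higher in GABAergic-like nuclei under 12 of 12 vectors (edgeR adjusted p = 1.65e-09 for Gad1 and 2.42e-06 for Gad2), and they were the 2 members called, where 2.95% of 8720 genes were called, 1.51% as higher and 1.43% as lower. From summed counts, Gad1 was 274-fold and Gad2 39.2-fold higher in GABAergic-like nuclei (95% counting intervals 217 to 350 and 34.8 to 44.2).

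Most glutamatergic-like counts of these genes lay in single nuclei. Of the 72 Gad1 counts in that class 71 came from 1 nucleus, and of the 279 Gad2 counts 236 came from 1 nucleus. The Gad1 counts were under hI56i, at 60.2 CPM. Slc32a1 had 1220 counts in GABAergic-like and 1 count in glutamatergic-like sums, a ratio of 760 with a counting interval of 136 to 30041, and was higher under 12 of 12 vectors, but was removed by the filter on low counts. Fitted without that filter it was called (edgeR adjusted p = 0.00264), in a range of 0.00242 to 0.731 over the alternatives that kept it. The filter also removed Slc6a11, which had no count in GABAergic-like and 32 counts in glutamatergic-like sums.

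The breakdown genes did not pass the test between these classes. Abat averaged 117 ± 68.7 CPM in GABAergic-like and 18.4 ± 28.4 CPM in glutamatergic-like sums (SD, n = 12 each) and was higher under 11 of 12 vectors, yet missed the threshold (log2 fold change 6.06, SE 1.96, edgeR adjusted p = 0.112). With vectors left out, Abat passed in 1 fit, that without CMV (edgeR adjusted p = 0.0226), and not in the other 11. Of the alternatives that left no vector out, 4 called it (log2 fold change 6.16 to 7.77) and 8 did not (2.66 to 10.7). DESeq2 was among the 4 (adjusted p = 1.58e-08), and over the alternatives run the adjusted p ran from that value to 1. Aldh5a1 averaged 29.9 ± 42.1 CPM in GABAergic-like and 27.99 ± 45.4 CPM in glutamatergic-like sums, with a log2 fold change of 0.08 (SE 2.55, edgeR adjusted p = 0.998).

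Slc6a11, the uptake gene, was found mainly in astrocyte-like nuclei. They held 74.4% of its 3693 counts, and it was found in 49 of all 800 nuclei. Over the 9 vectors with at least 3 astrocyte-like nuclei its level was 0 CPM under AiE0401h, 1.23 under AiE0600m, 5.02 under AiE0450h, 31.4 under AiE0743m_3xC2, 46.1 under CMV, 102 under DLX2.0, 124 under AiE0391h, 155 under AiE0390m and 211 under AiE0445h_3xC2. The spread between vectors was thus as large as the mean, 75.2 ± 76.5 CPM in astrocyte-like sums, against 0.258 ± 0.775 CPM in GABAergic-like sums (SD, n = 9 each). It was higher in astrocyte-like nuclei under 8 of 9 vectors, and AiE0401h had none in either class. The GABAergic-like counts were all under DLX2.0. Slc6a11 was removed by the filter on low counts, and without that filter edgeR gave a log2 fold change of 8.89 (SE 2.16, adjusted p = 0.00151). From 2666 counts in astrocyte-like and 12 in GABAergic-like sums, the ratio was 222 (counting interval 127 to 430).

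At equal depth Slc6a11 was detected in 37.5% of 104 astrocyte-like nuclei (28.2 to 47.5%), in 0.833% of GABAergic-like and in 0.671% of SPN-like nuclei. Pooled by library series it had 46.3 CPM in astrocyte-like nuclei of S40326 and 106 CPM in those of S40324. SPN-like nuclei held 4 counts, all in 1 nucleus, and glutamatergic-like nuclei 32, also in 1 nucleus. Oligodendrocyte-like nuclei held none, which allows up to 0.210 CPM at 3 counts over the 7 sums. The 102 nuclei under 1000 genes, which entered no class, held 897 counts (24.3%) in 4 nuclei.

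Oligodendrocyte-like nuclei served as the second glial class. Since 1 vector held both glial classes, the fit within vectors could not be made, and an unpaired fit of 9 astrocyte-like and 7 oligodendrocyte-like sums was used, chosen after seeing the data. Slc6a11 was called higher in astrocyte-like nuclei (edgeR adjusted p = 0.00317), where 9.92% of 6211 genes were called, 8.23% as higher and 1.69% as lower, and was at least 411-fold higher against 3 counts over the oligodendrocyte-like sums. With 500 genes as the minimum, where the fit within vectors could be made, it missed the threshold (log2 fold change 11.77, edgeR adjusted p = 0.470), against a log2 fold change of 10.89 in the unpaired fit. Abat averaged 136 ± 84.2 CPM in astrocyte-like sums (n = 9) and 31.7 ± 45.1 CPM in oligodendrocyte-like sums (n = 7), without passing (log2 fold change 2.53, SE 1.44, edgeR adjusted p = 0.447). Gad1, Gad2, Slc32a1 and Aldh5a1 were removed by the filter there.

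The synthesis and packaging genes were lower in astrocyte-like than in GABAergic-like nuclei. Over 9 vectors Gad1 averaged 23.98 ± 51.9 CPM in astrocyte-like and 685 ± 329 CPM in GABAergic-like sums, Gad2 17.1 ± 36 CPM in astrocyte-like and 429 ± 201 CPM in GABAergic-like sums, and Slc32a1 1.21 ± 2.64 CPM in astrocyte-like and 47.2 ± 56.4 CPM in GABAergic-like sums (SD, n = 9 each). The ranges do not overlap for Gad1 and overlap for Gad2 and Slc32a1. All 3 were lower in astrocyte-like nuclei under 9 of 9 vectors (edgeR adjusted p = 8.81e-05, 4.52e-04 and 0.0210), and were the 3 members called among 9.75% of 8469 genes, 4.04% higher and 5.71% lower. For Slc32a1 the call was lost when AiE0390m, AiE0391h, AiE0445h_3xC2, AiE0600m or DLX2.0 was left out (log2 fold change -8.07 to -7.55, edgeR adjusted p = 0.0501 to 0.0589), against -8.02 over all 9 vectors. It was also lost without the filter (-7.91), without the block (-4.83), within S40324 (-7.41) and without runs holding SPN-like nuclei (-10.44). For Gad2 it was lost within series S40326 (log2 fold change -8.50, adjusted p = 0.167) and within S40324 (-9.59, adjusted p = 0.358), against -8.98 over all 9 vectors.

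Some reads of neuronal genes lay in astrocyte-like sums. Gad1 was at 0 under 5 of 9 vectors, at 1.16 and 1.66 CPM under AiE0445h_3xC2 and AiE0391h, and at 61.6 and 151 CPM under AiE0401h and AiE0450h. It was detected in 7.69% of astrocyte-like nuclei at equal depth. The 14 interneuron markers summed to 34.4 to 972 CPM in astrocyte-like and 3093 to 10944 CPM in GABAergic-like sums. By their mean over vectors none of them was higher in astrocyte-like nuclei, and Lhx6, Adarb2, Nxph1, Npas1 and Prox1 were at 0 there. The 12 SPN markers had a median of 717 CPM (28.6 to 2192) in astrocyte-like and 504 CPM (226 to 824) in GABAergic-like sums. By their mean over vectors 8 of 12 were higher in astrocyte-like nuclei. Oligodendrocyte markers summed to 280 to 3439 CPM in astrocyte-like and 0 to 338 CPM in GABAergic-like sums, all 10 higher by mean in the astrocyte-like ones. The 8 glutamatergic markers had medians of 50.4 CPM in astrocyte-like and 2.13 CPM in GABAergic-like sums, with 7 of 8 higher by mean in astrocyte-like nuclei. The 7 microglia markers had medians of 189 CPM in astrocyte-like and 31.4 CPM in GABAergic-like sums (6 of 7 higher). Endothelial markers had a median of 0.580 CPM in astrocyte-like sums and reached 1397 CPM. The part of these reads of other cells' markers in the levels of the GABA genes was not tested.

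Abat, the first breakdown enzyme, was found in neurons and glia. It averaged 187 ± 100 CPM in SPN-like (n = 14), 136 ± 84.2 CPM in astrocyte-like (n = 9) and 124 ± 64.4 CPM in GABAergic-like sums (SD, n = 18), against 31.7 ± 45.1 CPM in oligodendrocyte-like and 18.4 ± 28.4 CPM in glutamatergic-like sums. Neighbours in this order all overlap within their SDs. Between SPN-like and GABAergic-like nuclei the log2 fold change was 0.63 (SE 0.43, edgeR adjusted p = 0.500), higher in SPN-like nuclei under 8 of 12 vectors. Between astrocyte-like and GABAergic-like nuclei it was 0.38 (SE 1.004, edgeR adjusted p = 0.906). Its detection at equal depth was 47.0% in SPN-like, 24.04% in astrocyte-like, 44.2% in GABAergic-like, 8.16% in oligodendrocyte-like and 10.9% in glutamatergic-like nuclei.

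Aldh5a1, the second breakdown enzyme, was not called between any classes. Its means were 43.4 ± 58.7 CPM in SPN-like, 21.7 ± 37.03 CPM in astrocyte-like, 44.2 ± 76.8 CPM in GABAergic-like, 18.7 ± 38.96 CPM in oligodendrocyte-like and 27.99 ± 45.4 CPM in glutamatergic-like sums. Every SD was larger than its mean, and sums at 0 occurred in all 5 classes. It was not called between SPN-like and GABAergic-like nuclei (log2 fold change -1.26, SE 2.01, edgeR adjusted p = 0.842) or between astrocyte-like and GABAergic-like nuclei (-0.96, SE 2.54, adjusted p = 0.906).

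**Figure D4:**
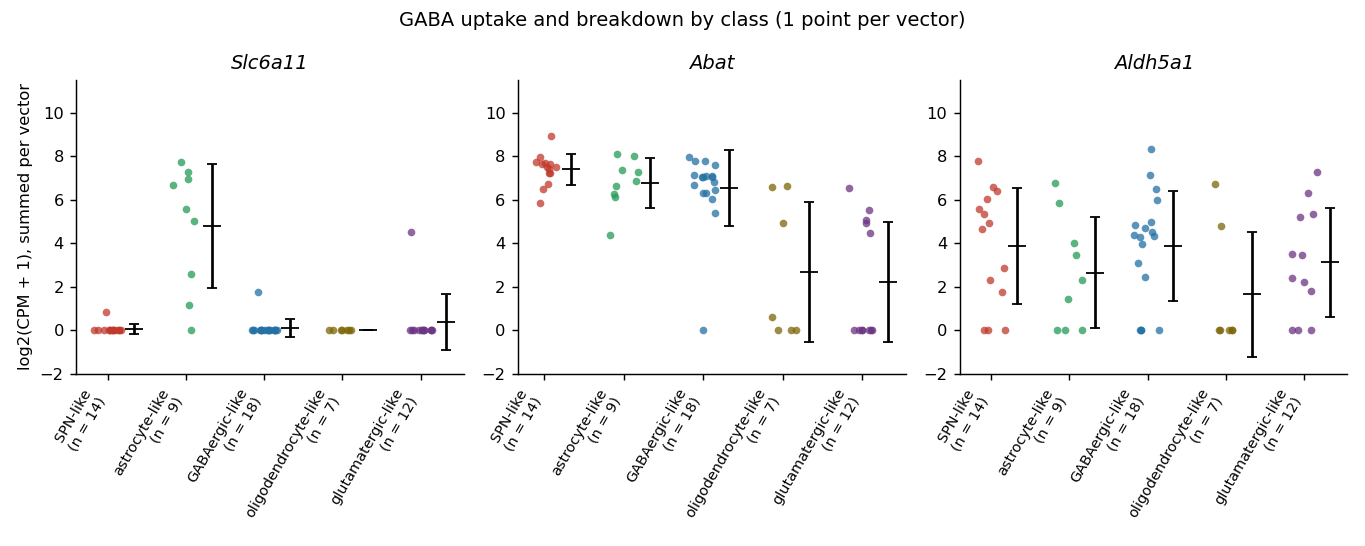
log2(CPM + 1) of Slc6a11, Abat and Aldh5a1 in 5 classes, 1 point per vector, with mean ± SD beside the points; n is the number of vectors. Slc6a11 points rise above 0 mainly in astrocyte-like nuclei, Abat points of SPN-like, astrocyte-like and GABAergic-like nuclei overlap, and Aldh5a1 spreads from 0 upward in every class.

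Within the GABAergic-like nuclei, parvalbumin (Pvalb-like) and somatostatin (Sst-like) interneurons were compared. Of the 120 Pvalb-like nuclei, 79 were in a subcluster led by Pvalb, 21 in one led by Tac1 and 20 in one led by Gpr83, the last 2 without Pvalb among their leading 10 genes. Gad1 averaged 1027 ± 244 CPM in Pvalb-like and 516 ± 221 CPM in Sst-like sums (SD, n = 11 each). Pvalb-like sums ran from 487 to 1339 CPM (median 1073) and Sst-like sums from 128 to 795 CPM (median 524). It was higher in Pvalb-like nuclei under 11 of 11 vectors, with overlapping ranges. The log2 fold change of 1.15 (SE 0.27, edgeR p = 3.18e-04) missed the threshold after adjustment (adjusted p = 0.0681), in a comparison where 0.44% of 7501 genes (0.267% higher, 0.173% lower) and no member were called. It passed under DESeq2 (adjusted p = 0.00203). With 500 genes as the minimum per nucleus edgeR gave an adjusted p of 0.0336, and with at least 5 nuclei per sum 0.873, in a range of 0.00203 to 0.997 over the alternatives run. Pooled by series, Gad1 had 1054 CPM in Pvalb-like and 494 CPM in Sst-like nuclei of S40326, and 932 CPM in Pvalb-like and 536 CPM in Sst-like nuclei of S40324.

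The other members did not pass between these subclasses. Gad2 averaged 397 ± 314 CPM in Pvalb-like and 233 ± 139 CPM in Sst-like sums (log2 fold change 0.91, SE 0.65, edgeR adjusted p = 0.993). Slc32a1 averaged 35 ± 23.5 CPM in Pvalb-like and 46.6 ± 52.3 CPM in Sst-like sums, and Slc6a11 had no count in either and was not tested. Abat averaged 154 ± 134 CPM in Pvalb-like and 127 ± 134 CPM in Sst-like sums (log2 fold change 0.60, SE 1.06, edgeR adjusted p = 0.999). Aldh5a1 averaged 48.8 ± 59.4 CPM in Pvalb-like and 11.4 ± 16.8 CPM in Sst-like sums, higher under 8 vectors and lower under 1 (log2 fold change 3.78, SE 2.01, edgeR adjusted p = 0.892). The Gad1 share of both synthesis genes was 73.9 ± 17.6% in Pvalb-like and 69.0 ± 17.7% in Sst-like sums (exact permutation p = 0.498, n = 11). The difference of 4.89 points was 17.5 points with 500 genes as the minimum (exact permutation p = 0.00549) and -1.09 points within S40326.

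Clusters of GABAergic-like nuclei gave further levels, described here without a test because the clusters were made from these nuclei. A cluster led by Adarb2, a marker of interneurons from the caudal ganglionic eminence, had 27 nuclei with 1415 CPM of Gad1 and 1115 CPM of Gad2. A cluster led by Gpr83, with 21 nuclei and the same first 3 leading genes as the Pvalb-like subcluster led by Gpr83, had 1332 CPM of Gad1 and 1.42 CPM of Slc32a1, from 8 counts. A cluster of 24 nuclei led by Sst, Npy and Nos1, the gene of neuronal nitric oxide synthase, had 438 CPM of Gad1 and 90.3 CPM of Gad2. Gad2 was detected in 16.7% of those 24 nuclei at equal depth (4.74 to 37.4%), while the larger Sst-led cluster without Nos1 among its leading genes had Gad2 at 332 CPM and in 68.5% of 73 nuclei (56.6 to 78.9%).

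Drd1-type and Drd2-type SPNs, the neurons of the direct and indirect striatal pathways, could be compared under 4 vectors. Gad1 averaged 175 ± 153 CPM in Drd1-type and 296 ± 175 CPM in Drd2-type sums, and Gad2 243 ± 191 CPM in Drd1-type and 178 ± 80.3 CPM in Drd2-type sums (SD, n = 4 each). Slc32a1, Slc6a11 and Aldh5a1 were removed by the filter on low counts there and were not tested. No member was called (edgeR adjusted p = 1 for Gad1, Gad2 and Abat), nor were more than 2 of 6288 genes (0.0318%), with 105 at an unadjusted p under 0.05. The Gad1 share was 42.5 ± 25.5% in Drd1-type and 56.2 ± 21.5% in Drd2-type sums, where 4 vectors allow no exact permutation p below 0.125 and the test gave 0.625. Without hI56i the directions turned, with a log2 fold change of 0.22 for Gad1, against -0.88 with it, of -0.10 for Gad2, against 0.25, and a share difference of 6.01 points, against -13.7.

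The list of 26 genes around GABA holds precursor supply, cofactor, further transporters and the succinate route. None of them was called between SPN-like and GABAergic-like nuclei (16 tested, median log2 fold change -1.04, all genes -0.50), between GABAergic-like and glutamatergic-like (16 tested), Pvalb-like and Sst-like (14 tested) or Drd1-type and Drd2-type nuclei (13 tested). The nearest in SPN-like nuclei was Slc38a1, a glutamine carrier of neurons, with medians of 139 CPM in SPN-like and 283 CPM in GABAergic-like sums (edgeR adjusted p = 0.0590). Between astrocyte-like and GABAergic-like nuclei 5 of 18 tested were higher and 2 lower, where 4.04% of all genes tested were called higher and 5.71% lower, with a list median of -1.53 and a median over all genes of -0.92.

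Of the 7 called, the 4 with the largest absolute log2 fold change are described. Slc38a3, a glutamine carrier of astrocytes, had a median of 463 CPM in astrocyte-like sums and no count in the 9 GABAergic-like sums, at least 6037-fold higher against 3 counts over those sums (edgeR adjusted p = 1.38e-07). Glul, which encodes glutamine synthetase, had medians of 593 CPM in astrocyte-like and 4.59 CPM in GABAergic-like sums (adjusted p = 2.86e-06). Maob, a monoamine oxidase that also acts in making GABA from putrescine, had medians of 138 CPM in astrocyte-like and 0 CPM in GABAergic-like sums (adjusted p = 8.32e-04). Slc38a1 went the other way, with medians of 0 CPM in astrocyte-like and 289 CPM in GABAergic-like sums (adjusted p = 2.94e-04). The other called genes were Aldh9a1 and Glud1, both higher in astrocyte-like nuclei, and Slc38a2, lower there. Against oligodendrocyte-like nuclei, in the unpaired fit, Slc38a3, Maob and Aldh1a1 were higher in astrocyte-like nuclei and Slc38a2 lower, of 16 tested, where 8.23% of all genes tested were called higher and 1.69% lower. Glul did not pass there, with medians of 593 CPM in astrocyte-like and 605 CPM in oligodendrocyte-like sums (log2 fold change 0.71, SE 0.56, edgeR adjusted p = 0.692).

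By vector label, over all 40 nuclei and with exact Poisson 95% intervals for counting error, the 6 genes spread widely. Each label is 1 sample, so labels were not tested against each other. Gad1 ran from 19.8 CPM (17.3 to 22.5) under CMV to 826 CPM (809 to 844) under AiE0475m. Gad2 ran from 46.7 CPM under AiE0410m to 442 CPM under AiE0401h. DLX2.0 had 636 CPM of Gad1 and hI56i 185 CPM, the neuronal hSyn1 promoter 162 CPM. The labels differed in their classes: 24 nuclei under DLX2.0 were GABAergic-like, 4 under hI56i, with 12 SPN-like, and 11 under hSyn1, with 27 glutamatergic-like. Within GABAergic-like nuclei alone Gad1 had 1233 CPM under DLX2.0, 1065 CPM under hI56i and 562 CPM under hSyn1. Slc6a11 was at 0 under 8 labels and highest under AiE0390m (111 CPM) and AiE0445h_3xC2 (106 CPM). Abat ran from 13.1 CPM under AiE0410m to 180 CPM under DLX2.0 and Aldh5a1 from 7.21 CPM under hSyn1 to 76.4 CPM under AiE0391h. Slc32a1 ran from 0 under AiE0410m to 29.9 CPM under DLX2.0. The labels at the ends of these ranges also differed in their classes. Of the 40 nuclei under AiE0410m, 7 were SPN-like, 1 GABAergic-like and 4 oligodendrocyte-like, and the rest were in no named class. Its SPN-like nuclei alone had 185 CPM of Gad2 and 89.2 CPM of Abat. Under CMV 3 nuclei were GABAergic-like, 18 glutamatergic-like and 16 astrocyte-like, and under AiE0475m 25 were GABAergic-like.

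**Figure D5:**
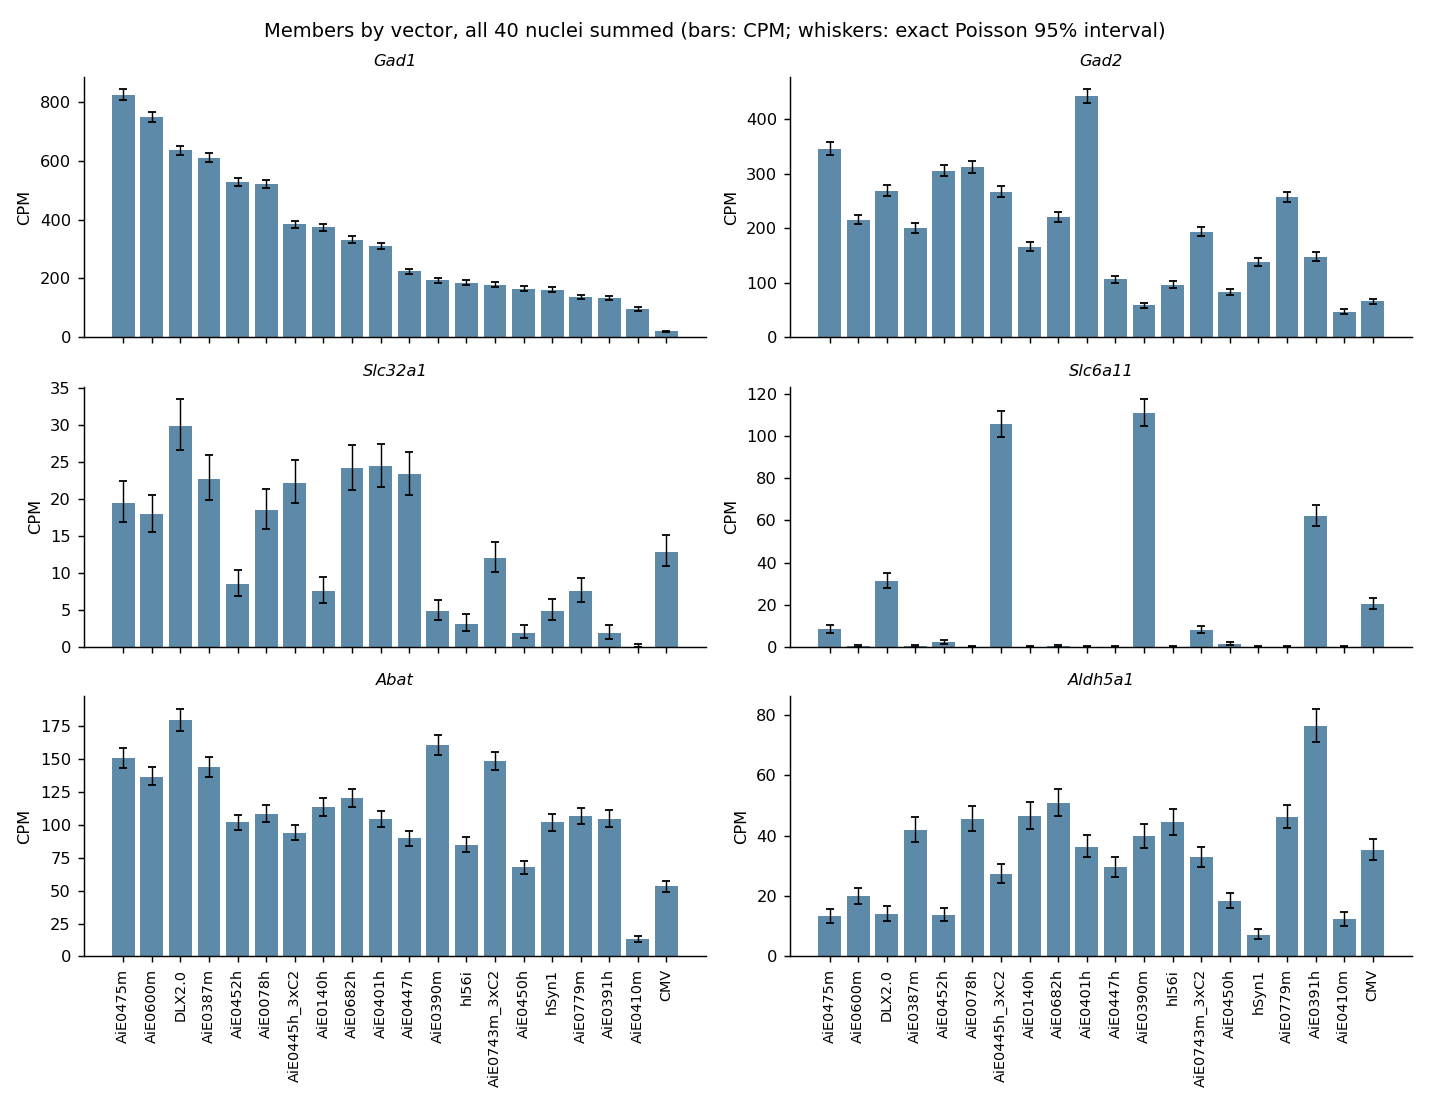
CPM of the 6 genes over all 40 nuclei of each vector label, in the order of Gad1; whiskers are exact Poisson 95% intervals (counting error only). Gad1 falls from 826 CPM to 19.8 CPM along the axis, Gad2 and Slc32a1 keep that order in part, and Slc6a11 is high under a few labels.

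Across 60 sums of class and vector, genes with a mean of at least 5 CPM were ranked by Pearson correlation of log2(CPM + 1) with each member, as a description without a test, since the sums share vectors and depth. Gad1 and Gad2 were each other's closest gene (r = 0.898 among 12362 genes), followed for both by Dlx6, a homeobox gene of forebrain inhibitory neurons, and its overlapping transcript Dlx6os1 (r = 0.831 to 0.889). For Slc32a1, Rab3b (0.760) and Kcns3 (0.750) were among the 3 closest genes. Slc6a11 was closest to Chil1 (0.881), Smim3 (0.871) and Etnppl (0.869). For Abat the highest were Sirt5 (0.631), Stag2 (0.593) and Rora (0.592), and for Aldh5a1 1700021F05Rik (0.570), Abcf3 (0.559) and B130055M24Rik (0.539).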

How the data were processed

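Per the labels' protocols, each library holds 1 nucleus; SMART-Seq v4 complementary DNA was turned into libraries by Nextera XT. These kits copy polyadenylated RNA at full length without molecule barcodes or strand. Per the submitters' processing notes, STAR 2.7.2a and mm10 were used. Not given in the sources used here are the annotation, how reads were assigned to genes, and whether introns counted. Raw read counts per gene were deposited by the authors; the values are whole and the totals differ between nuclei. The table has 2501 columns, of which 1701 carry no label and were not analysed here. Identifiers were matched to symbols for 32158 of 32285 genes. Longer transcripts gain more reads, so levels of different genes were set side by side only per kilobase of GENCODE M21 exon. That scale takes all reads as exonic, which is not known here.

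The 6 genes, the lists and the tests were chosen with earlier results of these data known. Nuclei with at least 1000 genes were clustered with scanpy 1.11.5 and leidenalg 0.10.2 (2000 variable genes, scaling cap 10, 30 principal components, 15 neighbours, resolution 1) without the 6 genes and the 26-gene list. A cluster took the class whose markers scored highest, if 3 or more of them were present in 25% of nuclei and 1 or more (subclass markers included) stood in the 10 genes of highest fold. Subclasses were named likewise. No doublet caller was run. Summed counts per vector ran from 9467151 to 12192831. Replicates are vector labels, and whether they come from separate animals is not stated, so p-values measure the spread between sums of different labels. That spread includes the sampling of nuclei, of which a sum may hold as few as 3.

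Sums of at least 3 nuclei were tested in R 4.3.3 with edgeR 4.0.16, by its quasi-likelihood test after filterByExpr and TMM scaling, and by DESeq2 1.42.0 as an alternative. A standard error is the size of the log2 fold change divided by the root of the F statistic. The block pairs 2 sums under 1 vector label. Deviations of paired sums from their class means hardly correlated (r = -0.033 to 0.043), so the label is a block by design and not from the data. The edgeR step was run on simulated data in the layout of the SPN-like and GABAergic-like sums, drawn without an effect of vector. Its outcome is not reported here, and it does not cover the comparisons with fewer vectors. Shares were compared by exact sign-flip permutation over vectors with scipy 1.17.1. Intervals are 95% and cover counting error only. All 6 genes are named in each comparison, list genes when called, up to 4 by absolute log2 fold change, and for likeness the top 3, of which 1 gene is not reported here. Slc38a1 between SPN-like and GABAergic-like nuclei, Glul between glial classes and the clusters within GABAergic-like nuclei were named after their values were seen. Alternatives covered normalization, filter, tool, block, minimum genes, class calls, resolution, numbers of nuclei, library series, runs of title numbers and each vector left out.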

Additional observations from a re-analysis of the deposited data

Results flagged for a closer look

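Of 22 groups of 4 to 10 vectors looked at, 10 had a sample that stood apart from the others, where chance flags about 1 in 20 groups of normally distributed values. That rate does not describe groups whose other samples are at 0, where any count stands apart. In astrocyte-like nuclei, Gad1 stood at 151 CPM under AiE0450h (next 61.6), Gad2 at 105 CPM under AiE0401h (next 43.9) and Slc32a1 at 7.68 CPM under AiE0743m_3xC2 (next 3.18). In oligodendrocyte-like nuclei, Gad1 stood at 549 CPM under AiE0140h (next 61.8), where 1 nucleus held 544 of the class's 852 counts. In the same class Gad2 stood at 63.6 CPM under AiE0447h, Slc32a1 at 33.1 CPM and Aldh5a1 at 104 CPM, both under AiE0682h. For each of these genes too, 1 nucleus held most of the class's counts: 254 of 316 for Gad2, all 63 for Slc32a1 and 198 of 329 for Aldh5a1. In Drd2-type SPN-like nuclei, Aldh5a1 stood at 164 CPM under AiE0410m (next 17.5), and Slc32a1 at 3.98 CPM and Slc6a11 at 1.77 CPM, both under AiE0387m with the others at 0.

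Nuclei outside every comparison also held counts of the GABA genes. The 102 nuclei under 1000 genes had 23.2 CPM of Gad1, 67.9 CPM of Gad2, 2.07 CPM of Slc32a1, 36.5 CPM of Slc6a11, 43.4 CPM of Abat and 34.03 CPM of Aldh5a1. The unnamed cluster led by Lhx8, with 20 nuclei, had 539 CPM of Gad1, 512 CPM of Gad2, 44.1 CPM of Slc32a1, 259 CPM of Abat and 49.6 CPM of Aldh5a1.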

How the results depend on the processing

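For single genes, 408 results kept their direction and side of the threshold over the alternatives, 16 lost and 9 gained a call and 33 changed sign. None of the sign changes was of a called value. The causes were not tested. Of the 6 genes, the number called in SPN-like against GABAergic-like nuclei was 2 under DESeq2, where 2462 of all 8961 genes tested were called. It was 0 with equal numbers of nuclei (495 of 7605 genes called) and in series S40326 alone (266 of 8292). It was also 0 with runs of 8 title numbers as the unit (72 of 3868). With GABAergic-like nuclei only from runs holding SPN-like nuclei it was 0 too (259 of 7637). It was 1 with each vector left out. In GABAergic-like against glutamatergic-like nuclei it was 4 without the filter (461 of 19779 genes called) or with at least 5 nuclei (224 of 9705). With vectors left out it was 2 to 3. In astrocyte-like against GABAergic-like nuclei it was 1 in series S40326 alone (285 of 8539 genes called) and in S40324 alone (115 of 9582). With vectors left out it was 2 to 3 there. In astrocyte-like against oligodendrocyte-like nuclei it was 0 at a minimum of 500 genes (97 of 4537), where the blocked fit could be made. In Pvalb-like against Sst-like nuclei it was 1 without the filter (105 of 17900), under DESeq2 (664 of 7501) or at 500 genes (41 of 8151).

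Genes called in SPN-like against GABAergic-like nuclei (691) numbered 1239 without the filter, 2462 under DESeq2, 266 in S40326, 72 with runs, 259 with GABAergic-like nuclei from runs holding SPN-like nuclei and 568 to 705 with vectors left out. In GABAergic-like against glutamatergic-like nuclei (257) they numbered 461 without the filter, 1351 under DESeq2, 171 with equal nuclei, 53 in S40326, 80 with runs, 41 without runs holding SPN-like nuclei and 183 to 315 with vectors left out. In astrocyte-like against GABAergic-like nuclei (826) they numbered 2918 under DESeq2, 285 in S40326, 115 in S40324, 482 without runs holding SPN-like nuclei and 677 to 910 with vectors left out, and against oligodendrocyte-like nuclei (616) 97 at 500 genes. In Pvalb-like against Sst-like nuclei (33) they numbered 105 without the filter, 664 under DESeq2, 19 with marker scores, 8 with at least 5 nuclei, 3 in S40326, 15 with runs, 12 without runs holding SPN-like nuclei and 20 to 32 with vectors left out. Between Drd types (2) they numbered 9 without the filter, 168 under DESeq2, 6 at 500 genes, with marker scores or with equal nuclei, 4 with runs and 2 to 9 with vectors left out.

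Without the replicate block, genes called numbered 573 in SPN-like against GABAergic-like, 527 in astrocyte-like against GABAergic-like and 12 in Pvalb-like against Sst-like nuclei, and Slc32a1 in astrocyte-like against GABAergic-like nuclei lost its call (-4.83, edgeR adjusted p = 0.0662). The block changed no other member's call.

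Log2 fold changes that changed sign, none of them called, were for Aldh5a1 0.40 (equal nuclei) and 0.14 and for Gad2 0.42 (both from runs holding SPN-like nuclei) in SPN-like against GABAergic-like nuclei. In GABAergic-like against glutamatergic-like nuclei Aldh5a1 was at -0.009 (RLE, and without runs holding SPN-like nuclei), -0.13 (DESeq2), -0.016 (no replicate block) and between -0.59 and 0.74 with vectors left out. In astrocyte-like against GABAergic-like nuclei Abat was at -0.51 (marker scores), -0.027 (at least 5 nuclei) and -0.023 to 0.70 with vectors left out, and Aldh5a1 at 1.20 (S40324) and 0.25 (without runs holding SPN-like nuclei). In Pvalb-like against Sst-like nuclei Slc32a1 was at -0.28 (no replicate block), -1.48 (500 genes), -0.42 (marker scores), -0.15 (resolution 0.5), -0.91 (runs) and -0.10 to 0.65 with vectors left out, Abat at -0.50 (at least 5 nuclei) and -2.52 (runs), and Gad2 at -1.31 (runs). Between Drd types Abat was at -0.14 (no replicate block), -0.82 (500 genes), -0.997 (runs) and -0.87 to 1.25 with vectors left out, Gad1 at -2.0 to 0.22 and Gad2 at -0.10 to 0.82 with vectors left out; Gad1 and Gad2 changed sign without hI56i.

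The Gad1 share differed by -16.5 to -9.63 points between SPN-like and GABAergic-like nuclei, by 2.04 to 10.2 between Pvalb-like and Sst-like nuclei and by -29.1 to 6.01 between Drd types with vectors left out. Between Pvalb-like and Sst-like nuclei it was 17.5 at 500 genes (exact permutation p = 0.00549) and -1.09 in S40326. As a mean over nuclei in place of a sum, the vectors highest by sum had 796 CPM of Gad1 (AiE0475m), 290 CPM of Gad2 (AiE0401h), 153 CPM of Abat (DLX2.0) and 98.3 CPM of Aldh5a1 (AiE0391h). By that mean other vectors were highest for Gad1 (AiE0600m, 876 CPM), Gad2 (AiE0452h, 348 CPM), Abat (AiE0390m, 186 CPM), Slc32a1 (AiE0447h, 29.04 CPM) and Slc6a11 (AiE0445h_3xC2, 151 CPM). Not run, for want of vectors with both classes, were S40324 alone in all but astrocyte-like against GABAergic-like nuclei, runs for astrocyte-like against GABAergic-like nuclei, resolution 0.5 and at least 5 nuclei for the Drd types, and, for the glial pair, all but 500 genes. The alternatives on runs holding SPN-like nuclei and the unpaired glial fit were chosen after seeing the data.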
